A study of Mus musculus with 6 samples.

Results

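Liver RNA of LERKO mice, in which the estrogen receptor ERα is lost from hepatocytes, was compared with that of CT mice for the genes of the urea cycle and of the periportal steps that feed it. The set is made of 9 genes chosen by pathway (Cps1, Otc, Ass1, Asl, Arg1, Nags, Slc25a13, Slc25a15 and Gls2), and each was represented by the probe set that the array's annotation pairs with that gene alone. Of these 9 genes, 7 had such a probe set, out of 18820 genes with one on the whole array, and all 7 reached a signal of 100 in all 6 arrays. Ass1 has 2 probe sets, but both are listed together with the transcribed pseudogene Gm5424, so neither was taken for Ass1. Gls2 has no probe set listed under its name. The signal of neither gene is reported.

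Both groups were female C57BL/6J mice, with 3 LERKO and 3 CT mice and 1 Affymetrix Mouse Gene 1.1 ST array per mouse. LERKO mice (Alb-cre/ERα fl/fl) carried floxed ERα alleles together with cre recombinase driven by the albumin promoter, which acts in hepatocytes. CT mice carried the same floxed alleles (ERα fl/fl) without cre, so that carrying cre and losing ERα cannot be told apart. Neither age nor feeding state at collection is given for the arrayed mice in the sources used here. Signals are robust multichip average (RMA) values on the log2 scale, and differences are log2 fold changes of LERKO minus CT from limma, a linear model with shared variance across probe sets.

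The urea cycle turns ammonia and the nitrogen of amino acids into urea for excretion, and in mammals the complete cycle runs in the liver. Its first steps take place in the mitochondrion and the others in the cytosol, so that carriers of ornithine, citrulline and aspartate are part of the pathway. The enzymes are most abundant in hepatocytes around the portal vein, while glutamine synthetase captures the ammonia that is left in the hepatocytes around the central vein. Fasting, glucagon and glucocorticoids are known to raise the transcripts of the cycle.

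Promoter sequence was available for 5 of the 9 genes, in 6 windows, and is shown for the measured members whose annotated start is also the outer start of the gene, which holds for Nags and for the upstream start of Slc25a15. These windows are printed so that the letters of an estrogen response element can be sought in the region next to genes measured in livers that lost hepatocyte ERα. Each line gives the 250 bases before the start on the gene's own strand, from RefSeq (GRCm38.p6). Capitals mark the hexamer AGGTCA, an arm of the element with its leading base, and the GC box GGGCGG, each on either strand.
Nags, chr11:102145263-102145512, plus strand: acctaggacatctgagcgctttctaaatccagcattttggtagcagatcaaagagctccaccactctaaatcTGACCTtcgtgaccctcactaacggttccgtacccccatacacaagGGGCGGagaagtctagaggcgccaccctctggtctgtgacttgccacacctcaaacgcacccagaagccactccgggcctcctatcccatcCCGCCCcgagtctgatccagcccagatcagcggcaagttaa
Slc25a15, chr8:22398622-22398871, minus strand: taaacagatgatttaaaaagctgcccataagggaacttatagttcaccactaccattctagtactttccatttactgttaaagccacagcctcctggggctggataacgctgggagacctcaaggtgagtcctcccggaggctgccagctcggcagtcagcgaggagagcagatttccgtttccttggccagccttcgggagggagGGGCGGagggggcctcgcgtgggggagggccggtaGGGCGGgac

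The palindromic element GGTCANNNTGACC was found in none of the 6 windows of the members, and in 0.0639% of 32851 windows of the same length before annotated starts. The hexamer AGGTCA, which overlaps with an arm of that element, was found in the Nags window only, on the reverse strand 178 bases before the start, and in 14.0% of all windows. The GC box had 2 matches in each printed window, and was present in 32.7% of all windows. The 5-letter core TGACG of the cAMP response element was in neither printed window, beside 17.8% of all windows. Of the 6 windows of the members, only that of Slc25a13 had it, on the gene's own strand 13 bases before the start. These letters are descriptions of the sequence and not sites of binding.

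The arrays matched their labels at the targeted gene. Esr1, which encodes ERα, had signals of 6.75, 7.06 and 6.77 in LERKO mice, against 8.45, 8.78 and 8.29 in CT mice, a difference of −1.65 (standard error 0.15, adjusted p = 0.149 from limma). All 7 markers of hepatocytes reached a signal of 100, and their summed signal on the linear scale was 57242 to 59124.5 in LERKO and 57342 to 60565 in CT. A pair of arrays stood apart by markers of other organs. In LERKO replicate 2, all 8 adrenal markers had their highest signal, with a sum of 7299 beside at most 113.8 in any other array (Cyp21a1 and Cyp11b1, enzymes of adrenal steroid synthesis, had the widest range). In CT replicate 3, all 9 measured pancreas markers had their highest signal, with a sum of 2141 beside at most 123.9 elsewhere (Ctrb1 and Clps, digestive proteins, had the widest range), and all 10 muscle markers did so too, with a sum of 1114 beside at most 327.6 (Acta1 and Ckm had the widest range). The results on the urea cycle are therefore given with and without these arrays. Over all 10633 probe sets kept, 0 (0%) passed an adjusted p of 0.05 in limma.

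No urea cycle gene passed the test in LERKO liver. Of the 7 measured members, 4 had a higher and 3 a lower mean in LERKO mice, and the median of their log2 fold changes was 0.02, beside a median of −0.01 and 46.5% on the higher side over all probe sets. The differences ran from −0.13 for Slc25a15 to 0.11 for Slc25a13, which are folds of 0.917 and 1.08, and their standard errors from 0.08 to 0.17. The adjusted p values from limma were between 0.796 and 0.985. No member (0 of 7) had an unadjusted p under 0.05, which 6.98% of all probe sets had. The mice of the groups overlapped for each member, so that 0 of 7 were without overlap, beside 13.0% of all probe sets.

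Of the mitochondrial enzymes, Nags makes N-acetylglutamate, the obligatory activator of carbamoyl phosphate synthetase. Nags had signals of 8.46, 8.50 and 8.67 in LERKO mice, against 8.76, 8.53 and 8.22 in CT mice. The 3 LERKO mice lay inside the range of the CT mice, whose replicate 3 was the lowest of all and replicate 1 the highest. The difference was 0.04 (standard error 0.14), with a 95% interval of 0.81-fold to 1.31-fold.

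Cps1, carbamoyl phosphate synthetase, joins ammonia with bicarbonate in the entry step of the cycle. Its signals were 12.89, 13.05 and 12.89 in LERKO mice, against 13.02, 13.04 and 12.86 in CT mice. LERKO replicate 2 stood with the 2 higher CT mice, and CT replicate 3 stood with the 2 lower LERKO mice. The difference was −0.03 (standard error 0.09), with a 95% interval of 0.85-fold to 1.13-fold.

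Otc, ornithine transcarbamylase, makes citrulline from carbamoyl phosphate and ornithine, and its gene lies on the X chromosome. It had signals of 11.34, 11.45 and 11.29 in LERKO mice, against 11.42, 11.43 and 11.29 in CT mice. Otc had the narrowest range of the members, 0.16 between the highest and the lowest mouse. From highest to lowest, the 6 mice were in the same order as for Cps1. The difference was −0.02 (standard error 0.08), with a 95% interval of 0.87-fold to 1.12-fold.

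In the cytosol, Asl, argininosuccinate lyase, releases arginine and fumarate. Asl had signals of 11.19, 11.63 and 11.03 in LERKO mice, against 11.27, 11.43 and 11.07 in CT mice. LERKO replicate 2 had the highest signal and LERKO replicate 3 the lowest, so the CT mice lay inside the LERKO range. The difference was 0.02 (standard error 0.17), with a 95% interval of 0.76-fold to 1.36-fold.

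Arg1, liver arginase, splits arginine into urea and ornithine and closes the cycle. Its signals were 11.58, 11.85 and 11.62 in LERKO mice, against 11.60, 11.86 and 11.49 in CT mice. The mouse numbered 2 was the highest of its group in both genotypes. The difference was 0.03 (standard error 0.12), with a 95% interval of 0.84-fold to 1.26-fold.

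The carriers of the inner mitochondrial membrane had the largest differences in either direction. Slc25a15, the ornithine carrier that brings ornithine in and citrulline out, had signals of 10.76, 11.02 and 10.70 in LERKO mice, against 11.07, 11.20 and 10.59 in CT mice. Its highest mouse and its lowest mouse were both CT, 0.61 apart, the widest range among the 7 members. The difference was −0.13 (standard error 0.17), with a 95% interval of 0.69-fold to 1.22-fold, which reaches 1.46-fold lower. Slc25a13, or citrin, exports the aspartate that supplies a nitrogen atom of urea. It had signals of 10.39, 10.27 and 10.33 in LERKO mice, against 10.25, 10.30 and 10.11 in CT mice. LERKO replicates 1 and 3 stood above all CT mice and LERKO replicate 2 between CT replicates 1 and 2. The difference was 0.11 (standard error 0.08), with a 95% interval of 0.95-fold to 1.23-fold.

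Exact two-sided permutation tests over the mice gave p values from 0.20 for Slc25a13 to 1.0, where 3 mice against 3 cannot give less than 0.10. Each 95% interval held 0, and the widest bound among the 7 genes was 1.46-fold. Larger differences than these bounds are thus outside the intervals, while differences within them cannot be told from none with 3 mice per group.

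**Figure D1:**
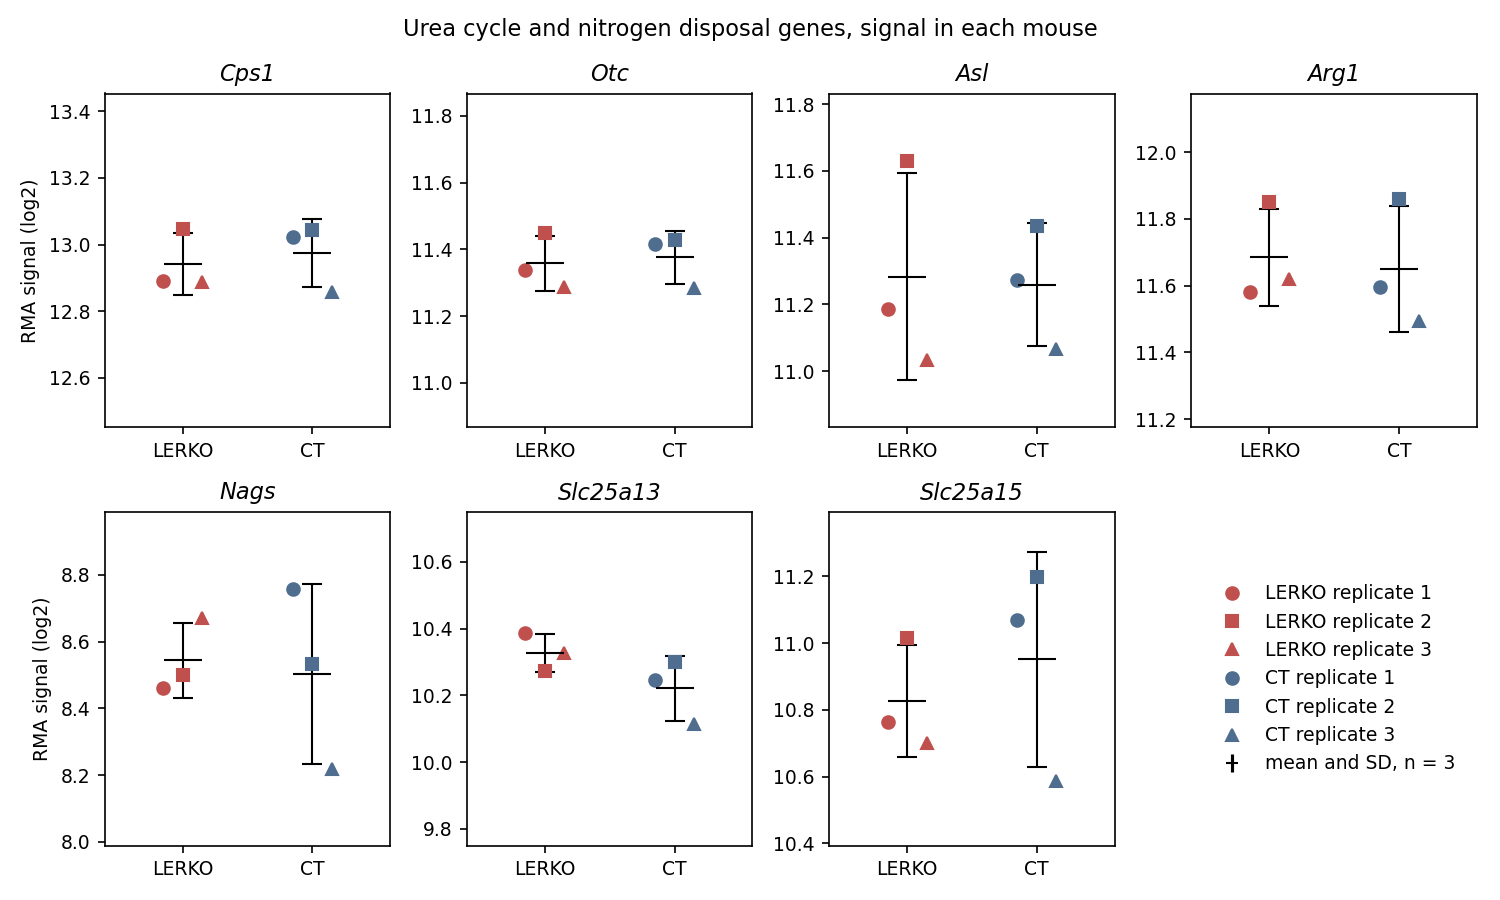
RMA signal (log2) of the 7 measured members, 1 point per mouse with the marker shape giving the replicate number, and the mean and SD of the 3 LERKO and 3 CT mice. Each panel spans 1 log2 unit and does not start at 0, and in every panel the points of LERKO and CT mice overlap.

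Leaving out 1 array turned the sign of 5 of the 7 differences, those of Cps1, Otc, Asl, Arg1 and Nags. Cps1 turned without CT replicate 2, Otc without LERKO replicate 3, CT replicate 1 or CT replicate 2, Asl and Arg1 without LERKO replicate 2 or CT replicate 3, and Nags without LERKO replicate 3 or CT replicate 3. Slc25a13 stayed on the higher side, from 0.05 to 0.15, and Slc25a15 on the lower side, from −0.31 to −0.0021. Leaving out either array with high markers of other organs lowered the median of the members. Without CT replicate 3, 1 of the 7 members was on the higher side in LERKO, with a median of −0.07, and without LERKO replicate 2 there were 2, with a median of −0.06. Without both, again 1 of 7 was on the higher side and the median was −0.13, beside −0.03 over all probe sets. Of all 10633 probe sets, 4537 were on the higher side without CT replicate 3, 5024 without LERKO replicate 2 and 4547 without both. In the 4 mice left without both, Slc25a15 had −0.40, Asl −0.25, Cps1 −0.14, Arg1 −0.13, Otc −0.11, Nags −0.08 and Slc25a13 0.08. These 4 include CT replicate 2, the highest CT mouse for 6 of 7 members. Without CT replicate 2 alone, 6 of 7 were on the higher side, the median was 0.06 and Slc25a15 had −0.0021. Slc25a15 was the 1 of 7 members with an unadjusted p under 0.05 in limma without CT replicate 3 (−0.31, standard error 0.12, adjusted p = 0.440), beside 11.2% of all probe sets, and again without both arrays (−0.40, standard error 0.10, adjusted p = 0.392), beside 10.8%. Without LERKO replicate 2 there were 0 of 7, beside 7.53%. Whether the RNA behind the adrenal, pancreas and muscle markers has a part in these values was not tested.

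**Figure D2:**
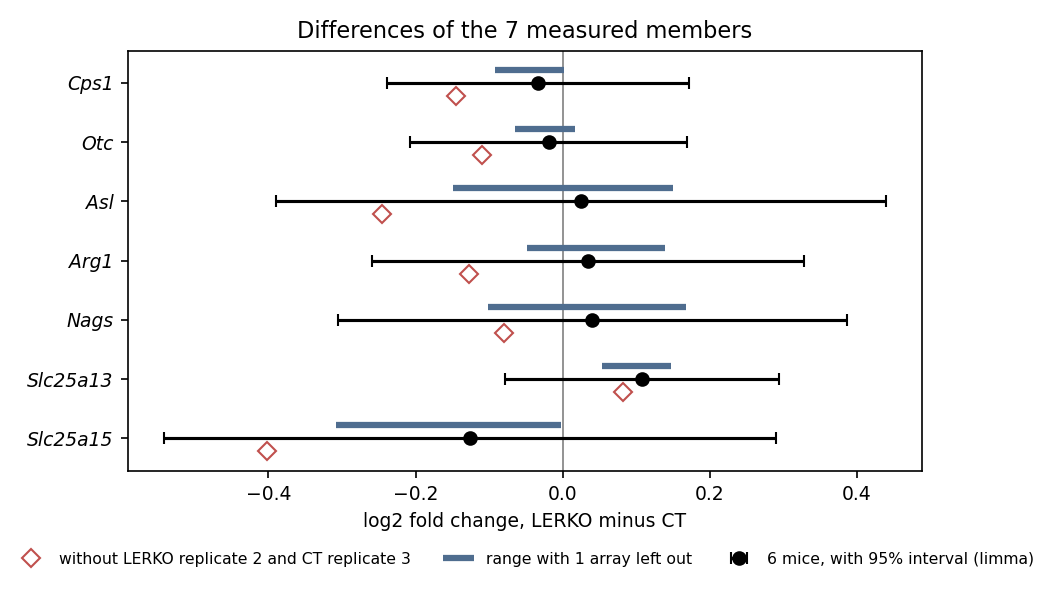
Log2 fold change of LERKO minus CT for the 7 members, with 95% intervals from limma (black), the range with 1 array left out (blue bars) and the value without LERKO replicate 2 and CT replicate 3 (open diamonds). All black intervals cross 0, and the open diamonds lie below 0 for each gene other than Slc25a13.

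For each member other than Slc25a13, the difference between genotypes was smaller than the SD within either group, and most members varied together over the mice. CT replicate 3 was the lowest of the CT mice for 7 of 7 members, where this held for 46.6% of all probe sets, and CT replicate 2 was the highest of them for 6 of 7 (43.3% of all probe sets). LERKO replicate 2 was the highest of the LERKO mice for 5 of 7, beside 34.5% of all probe sets. Averaged over the 7 members, the deviation from the mean of the 6 mice was −0.05, 0.12 and −0.06 in LERKO mice, against 0.06, 0.12 and −0.19 in CT mice. The median SD of a member was 0.11 within LERKO and 0.18 within CT, beside 0.098 and 0.123 over all probe sets. In the same arrays the mean deviation of the 7 hepatocyte markers lay between −0.04 and 0.03, and it was 0.02 in CT replicate 3. In bulk liver, fewer hepatocytes of a zone and less RNA in each of them cannot be told apart.

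Among the members, Cps1, Otc, Asl, Arg1 and Slc25a15 followed each other over the 6 mice, with Pearson's r between 0.78 and 0.97 in their 10 pairs. The closest pair was Cps1 and Otc, which act in succession in the mitochondrion. The 11 pairs that include Nags or Slc25a13 had r between 0.13 and 0.51. For Nags, CT replicate 1 and LERKO replicate 3 were highest, and for Slc25a13, LERKO replicates 1 and 3 were highest. This grouping was made after the values were seen and is a description over 6 mice that share their normalization.

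**Figure D3:**
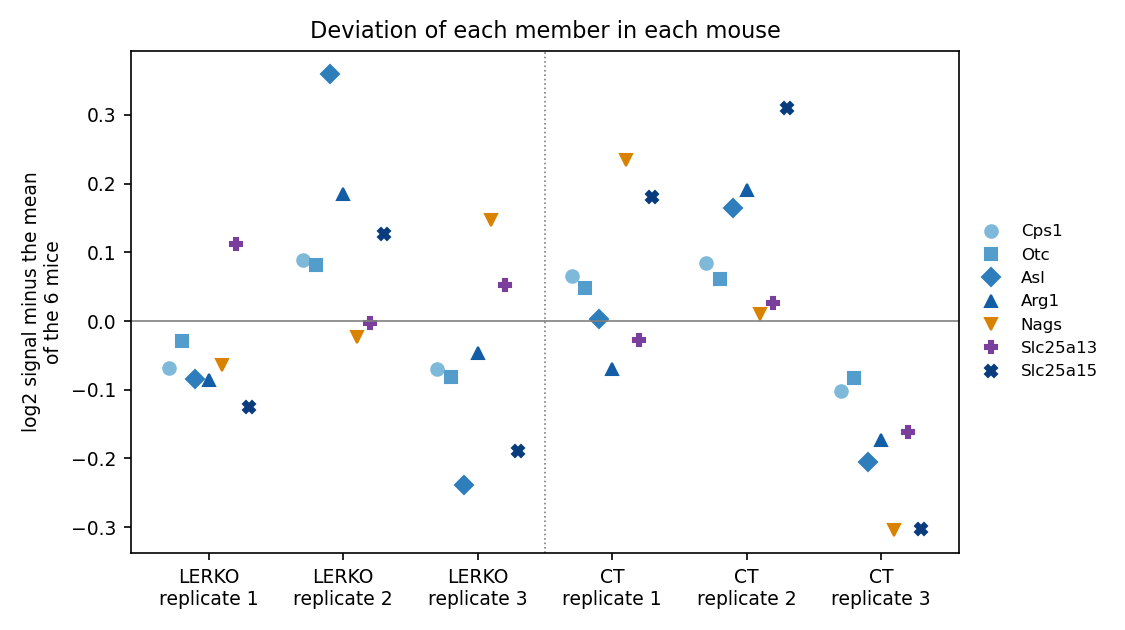
Log2 signal of each member minus its mean over the 6 mice, in the 3 LERKO and 3 CT mice. Cps1, Otc, Asl, Arg1 and Slc25a15 (blue) are above 0 together in LERKO replicate 2 and CT replicate 2 and below 0 together in LERKO replicates 1 and 3 and CT replicate 3, while Nags (orange) and Slc25a13 (purple) are highest in other mice.

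The genes nearest to the mean profile of the members were Mapk1ip1, Gpt, Mindy2, Ttc39b and Mcee, with r from 0.981 to 0.985 over 6 mice. From highest to lowest mouse they ranged over 0.16, 0.67, 0.47, 0.43 and 0.14, in that order, so Mapk1ip1 and Mcee varied little. Gpt is also on the list of nitrogen supply described next. Gpt encodes the cytosolic alanine transaminase, which transfers the amino group of alanine to a keto acid, and Mcee a mitochondrial epimerase of propionate breakdown. Of 6895 other genes, 87 had an r above 0.9 to that profile. Gpt had signals of 8.97, 9.29 and 8.91 in LERKO mice, against 9.07, 9.27 and 8.62 in CT mice. Its difference was 0.07 (standard error 0.19).

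No gene that delivers nitrogen, bicarbonate or substrates to the cycle passed the test. Of 27 genes on this list, 22 had a probe set of their own and 18 passed the signal filter, of which 0 passed an adjusted p of 0.05 in limma and 0 an unadjusted p of 0.05. There were 7 on the higher and 11 on the lower side in LERKO, with a median of −0.05. Slc25a22, a mitochondrial glutamate carrier, had the smallest p, with 10.31, 10.37 and 10.29 in LERKO mice, against 10.44, 10.68 and 10.36 in CT mice. LERKO replicate 2 lay just above CT replicate 3, so the groups overlapped, and the difference was −0.18 (standard error 0.10, adjusted p = 0.748 from limma). Oat, which links ornithine with glutamate and is a gene of pericentral hepatocytes, had 0.22 (standard error 0.12). Slc38a4, an importer of neutral amino acids, had −0.13 (standard error 0.09). Aqp9, a channel for glycerol and urea, had 0.16 (standard error 0.11). Prodh, the first enzyme of proline breakdown, had 0.35 (standard error 0.26), and ranged from 0.10 to 0.61 with 1 array left out. CT replicate 3 was the lowest CT mouse for 15 of the 18 genes, and LERKO replicate 2 the highest LERKO mouse for 14. Without both arrays the median was −0.17, with 4 of 18 on the higher side. The ornithine carrier Slc25a2, the glutamine transporter Slc38a5, the urea transporter Slc14a1 and the deacylase Sirt5, which acts on CPS1, stayed below a signal of 100 in all arrays.

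Regulators known to act on urea cycle genes had a median difference of −0.0016, with 5 of 11 on the higher side. By an adjusted p of 0.05 in limma 0 of 11 passed, beside 0% of all probe sets. Nr3c1, the glucocorticoid receptor, had 7.93, 7.89 and 7.89 in LERKO mice, against 8.16, 8.06 and 8.08 in CT mice. Each LERKO mouse was below each CT mouse, with a difference of −0.20 (standard error 0.06, adjusted p = 0.703 from limma), and the value ranged from −0.21 to −0.17 with 1 array left out. It was the 1 regulator of 11 without overlap, beside 13.0% of all probe sets. Foxo1, which insulin restrains, had 0.28 (standard error 0.11, adjusted p = 0.703 from limma), and these 2 of the 11 regulators had an unadjusted p under 0.05, beside 6.98% of all probe sets. Cebpb, which is induced in fasting, had 0.35 (standard error 0.17), Klf9, a target of glucocorticoids, −0.14 (standard error 0.08), and Foxa2, a pioneer factor of hepatocytes, −0.12 (standard error 0.09). Cebpb ranged from 0.18 to 0.52 with 1 array left out.

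**Figure D4:**
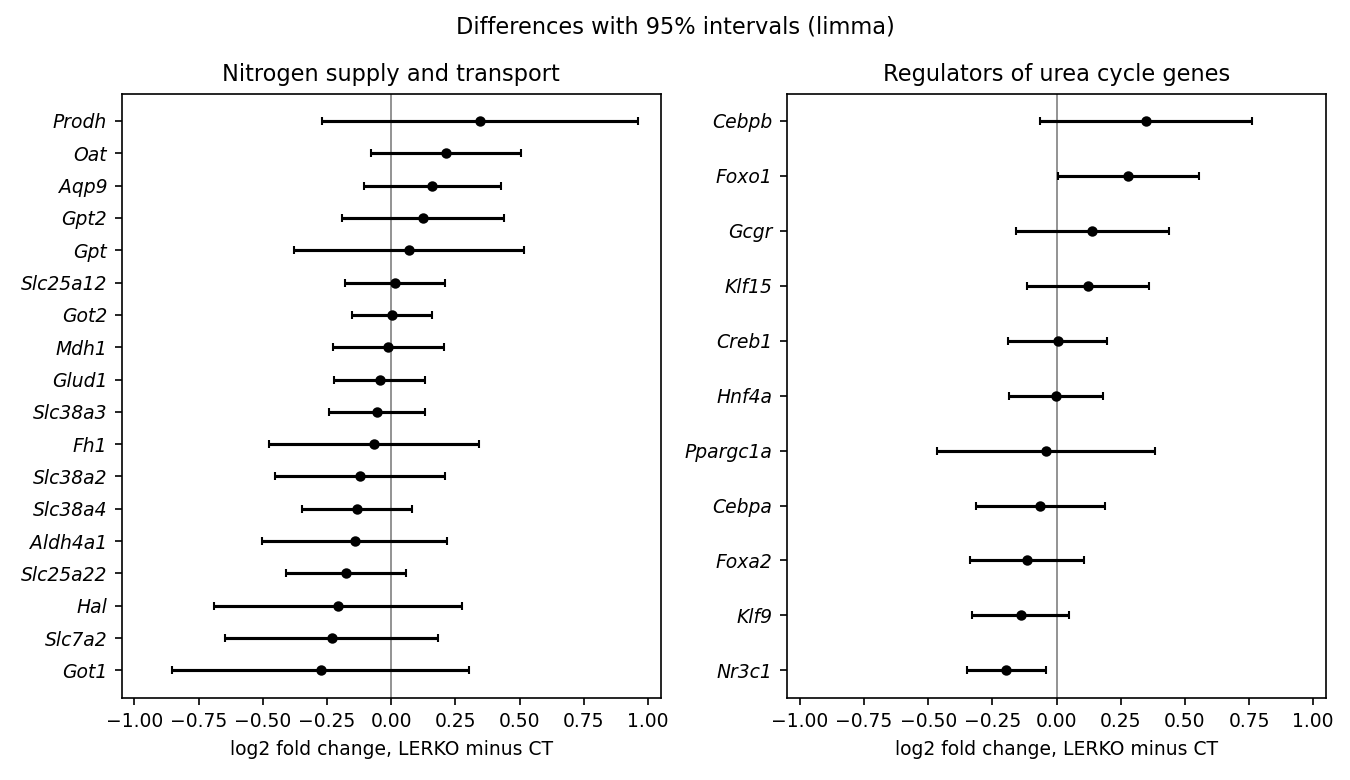
Log2 fold change of LERKO minus CT with 95% intervals from limma, for 18 genes of nitrogen supply (left) and 11 regulators (right). In the left panel every interval crosses 0, and in the right panel those of Nr3c1 (−0.20) and Foxo1 (0.28) do not, before adjustment over all probe sets.

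The zones of the liver lobule set 1 CT mouse apart from the others. Over 10 pericentral markers kept, CT replicate 2 was the lowest of the 6 mice for 9, beside 16.4% of all probe sets. Over 10 periportal markers kept, it was the highest for 7, beside 28.3%, and the lowest for 1, beside 16.4%. That 1 was Cyp2f2, the periportal marker of highest signal, at 12.49 in CT replicate 2 and 12.65 to 12.75 in the other mice. Glul, glutamine synthetase, had 12.58, 12.33 and 12.52 in LERKO mice, against 12.41, 11.74 and 12.43 in CT mice. Rhbg, an ammonium transporter of the same cells, had 8.29, 8.64 and 8.76 in LERKO mice, against 8.95, 7.27 and 8.55 in CT mice. Hal, the periportal enzyme of histidine breakdown, had 11.51, 11.84 and 11.59 in LERKO mice, against 11.79, 12.28 and 11.50 in CT mice. For Glul, Rhbg and Hal, CT replicate 2 stood at the far end. Rhbg was named after its values were seen.

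All 10 pericentral markers kept were on the higher side in LERKO, beside 46.5% of all probe sets, with a median of 0.25. Of the 10, 0 passed an adjusted p of 0.05 in limma, beside 0% of all probe sets. Without CT replicate 2 the median was 0.04 with 8 of 10 on the higher side. The markers of highest signal were Cyp2e1 (0.08, standard error 0.07), Oat (0.22), Glul (0.29, standard error 0.20) and Cyp7a1, which starts bile acid synthesis from cholesterol. Cyp7a1 had 12.39, 12.49 and 12.57 in LERKO mice, against 12.05, 11.97 and 12.04 in CT mice. Each LERKO mouse was above each CT mouse, with a difference of 0.46 (standard error 0.07, adjusted p = 0.703 from limma), and the value ranged from 0.42 to 0.51 with 1 array left out. Cyp2e1 and Cyp7a1 were the 2 of 10 pericentral markers without overlap, beside 13.0% of all probe sets, and Cyp7a1 was the 1 of 10 with an unadjusted p under 0.05, beside 6.98%. Of 10 periportal markers, 5 were on the higher and 5 on the lower side, with a median of −0.01. Among those of highest signal, Cyp2f2 had 0.03, Pck1, the gluconeogenic carboxykinase, −0.02, Pigr 0.10 and Hal −0.21. Hal turned to 0.005 with CT replicate 2 left out. The mean deviation of the urea cycle members was 0.12 in CT replicate 2 and 0.12 in LERKO replicate 2. That of the periportal markers was 0.38 in CT replicate 2 and −0.0027 in LERKO replicate 2. Whether the zones have a part in the values of the members was not tested.

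**Figure D5:**
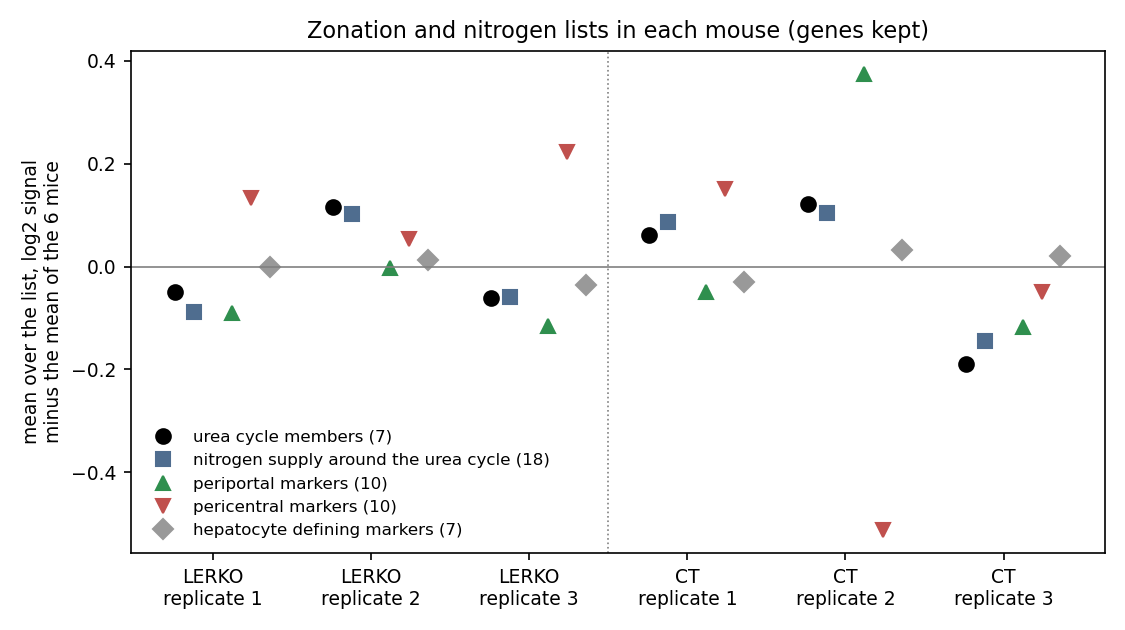
Mean over each list of the log2 signal minus the mean of the 6 mice, 1 point per mouse and list (set side by side within a mouse), for 7 urea cycle members, 18 genes of nitrogen supply, 10 periportal, 10 pericentral and 7 hepatocyte markers. In CT replicate 2 the pericentral mean is −0.51 and the periportal mean 0.38, while the urea cycle and nitrogen supply means are lowest in CT replicate 3 at −0.19 and −0.15.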

How the data were processed

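RNA of 6 female mouse livers was measured on Affymetrix Mouse Gene 1.1 ST arrays, with 1 array for each animal. The authors deposited log2 signals by probe set, which they made with RMA in the oligo package, with background correction and quantile normalization over the arrays, and did not filter. The oligo version is not given in the sources used here. Gene names came from the array platform's annotation, with symbols updated by gene identifier (21185 of 21218 probe sets with 1 gene were found in RefSeq). Where a gene had several, the one with the highest mean over the 6 arrays was used.

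The study filtered out genes with signals under 100 over its samples, a wording that allows more than 1 filter. The filter chosen here kept a probe set if its signal was 100 or more in at least 1 array. At a false discovery rate of 5%, the study reports 3 genes, with Esr1 among them. The chosen filter gave 0 probe sets, and a signal of 100 required in all 6 arrays gave 3. Whether those 3 are the genes of the study was not tested. Genotype was the single term of a linear model (lmFit, then eBayes, in limma 3.58.1 under R 4.3.3), tested two-sided and adjusted by Benjamini-Hochberg over the 10633 probe sets that remained (threshold 0.05). The test was checked on simulated data. The replicates are separate mice. Precision is limited by how few arrays there are.

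The members and lists (nitrogen supply, regulators, markers of liver zones, hepatocytes, other liver cells and other organs) were chosen with earlier results of these data known. Besides the members, genes are named by smallest p in the nitrogen supply and regulator lists (5 each), highest signal in the zone lists (4 each), likeness to the members (5) and widest range in the organ lists (2 each). Other genes, such as Rhbg and those below a signal of 100, were named after their values were seen. Alternatives covered the filter, the probe sets in the fit, the mean over the probe sets of a gene, variance settings, array weights and 3 normalizations. They also covered a t-test of unequal variance, a block for replicate number, and the omission of single arrays.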

Additional observations from a re-analysis of the deposited data

How the results depend on the processing

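The number of probe sets called was 0 in limma, 0 by the t-test of unequal variance and 0 with the replicate block, and was 3 with a signal of 100 required in all 6 arrays and 1 with an intensity trend. With 1 array left out it was 0 to 1 (1 without LERKO replicate 3). At an unadjusted p under 0.05 the counts were 416 to 1739 over the alternatives, the highest of which came from the fit with no signal filter. The median of the members was 0.02, lay between −0.071 and 0.073 when any single array was omitted, was −0.04 with array weights, and was −0.13 without CT replicate 3 and LERKO replicate 2, an alternative chosen after seeing the data.

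Of 133 values of single members under alternatives, 119 kept their sign and 14 turned it. The filter, the probe sets in the fit, the variance settings, the t-test and the block cannot change a difference. Signs under these were fixed in advance and are no measure of stability. The same holds for the mean over the probe sets of a gene, as each member has 1, and this alternative had no test. Where a test was made, 0 values had an adjusted p under 0.05. Array weights turned Nags to −0.039. With 1 array left out, Cps1 ranged from −0.09 to 0.0013, Otc from −0.064 to 0.017, Asl from −0.15 to 0.15, Arg1 from −0.05 to 0.14 and Nags from −0.10 to 0.17. Without CT replicate 3 and LERKO replicate 2, Asl was −0.25, Arg1 −0.13 and Nags −0.08, and Otc, which kept its sign, −0.11. The cause of these turns was not tested, and each value lay within the 95% interval of its main value. The 3 further normalizations turned no member. The replicate number as a block left each difference as it was, with 574 probe sets at an unadjusted p under 0.05 beside 742 without it. With the block, the standard error fell to 0.097 for Asl, 0.085 for Arg1 and 0.113 for Slc25a15, and rose for Cps1, Otc, Nags and Slc25a13. Same-numbered LERKO and CT arrays had deviations correlated at −0.16, −0.07 and −0.14, and arrays of different numbers at 0.005 to 0.16. Over all probe sets the numbers thus gave no sign of paired mice, and the labels state no pairing.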

Other observations

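Markers of the other cells of the liver were measured beside the urea cycle genes. Of 6 Kupffer cell markers, 5 reached a signal of 100, and their summed linear signal was 2532 to 2903 in LERKO and 1860 to 3057 in CT, with CT replicate 2 the lowest of the 6 mice. Of 6 endothelial markers, 6 reached it, with sums of 2942 to 3338 in LERKO and 2849 to 3705 in CT. Stellate cell markers (5 of 6) summed to 3646 to 4392 in LERKO and 3463 to 4899 in CT. CT replicate 3 was the highest for 4 of them, Reln, Dcn, Lrat and Des. Des had 8.32 in that array, which also had the highest muscle markers, and 6.24 to 6.74 in the others. Whether muscle RNA has a part in this was not tested. Of 5 measured cholangiocyte markers only Sox9 reached a signal of 100, with sums of 152.4 to 162.3 in LERKO and 174.2 to 220.5 in CT. The small intestine, which also expresses Cps1 and Otc, had 5 of 7 markers below a signal of 100 in all arrays, among them Sis, Lct and Vil1, while Anpep and Fabp2, which liver also expresses, reached it. Genes in this paragraph were named after their values were seen.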
